A study of Cricetulus griseus with 24 samples.

Results

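Methotrexate enters cells, is retained in them and acts on them by way of folate metabolism, and the RNA of 9 genes of folate uptake, folate retention and one-carbon transfer was followed here in Chinese hamster ovary (CHO) cells. The 9 genes, Slc19a1, Fpgs, Ggh, Tyms, Shmt1, Mthfd1, Shmt2, Mthfd2 and Mthfd1l, were taken by symbol from the 28037 genes of the deposited count table, and all 9 were found once. Each had counts in every library and was tested in every comparison.

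RNA sequencing had been carried out on 3 cell lines, A0, A1 and CHO-S, at exponential and at stationary phase. The methods of the paper describe batch culture in serum-free medium for A0 and A1 and do not name CHO-S. A0 is an antibody-producing line of the CHO DG44 host. It carries plasmids with the antibody heavy chain, the light chain and neomycin resistance, and was selected with G418. A1 is the progeny of A0 after stepwise selection in rising methotrexate, and CHO-S is a line without antibody genes, whose samples are titled NDST, a name not explained in the sources used here. A0 had 8 exponential libraries, which carry the culture numbers 1 to 4, and 4 stationary libraries, while A1 and CHO-S had 3 libraries in each phase. The second exponential library of A0 cultures 1 and 2 is marked RLT and that of cultures 3 and 4 is marked as a duplicate. The libraries of 1 culture number were summed, which left 20 cultures. A0 and A1 are each 1 line, so a change through amplification and the choice of a clone cannot be told apart, and CHO-S is not the host of A0, so host, transgenes and selection cannot be told apart there. The methods describe triplicate cultures and the labels do not say which numbers were separate flasks, so p-values measure the spread between these cultures.

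Folates carry one-carbon units for the synthesis of thymidylate, purines and methionine. Mitochondrial enzymes take the unit from serine and export it as formate, and cytosolic enzymes put it to use. Methotrexate, an antifolate, shares the uptake carrier of reduced folates and, like them, is held in the cell by a chain of glutamates.

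Counts on genes ranged from 8479208 to 14586630 per A0 exponential library, from 10727892 to 12913264 in A0 stationary, from 11823294 to 13060749 in A1 exponential, from 6532373 to 12140773 in A1 stationary and from 12449462 to 14652646 in CHO-S exponential libraries. CHO-S stationary culture 1 stood apart with 1038026 counts, against 14290792 and 7516854 in cultures 2 and 3. Its mean correlation with the other cultures of its group, over 10588 genes with a mean of at least 5 CPM (counts scaled to library size), was 0.886, the lowest of the 20 cultures, and 32.8% of its reads fell outside genes. Fpgs had 8 counts in it and Shmt1 had 10, so the calls of the 9 genes in comparisons with CHO-S at stationary phase are also given without it, while levels, gene lists and correlations include it. Among the A0 cultures, 1 and 2 were closest at exponential phase, and 1 and 2 as well as 3 and 4 formed pairs at stationary phase. At exponential phase the correlation was 0.996 between cultures 1 and 2 and 0.99 between cultures 3 and 4, and 0.979 to 0.99 across them. At stationary phase it was 0.995 and 0.996 within and 0.983 to 0.985 across. Fits below that keep only cultures 1 and 2, or only 3 and 4, take the A0 spread from those cultures. Their p-values do not measure the spread between all the A0 cultures. Between the libraries of 1 A0 culture, the ratio of the second to the unmarked library ranged over the 9 genes from 0.877 (Mthfd2, culture 3) to 1.29 (Ggh, culture 1).

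Of the marker genes, Actb, Vim and Lgals1 were high, and the others were mixed. Actb was at 2550 ± 197 CPM in A0 at exponential phase (SD, n = 4), Vim at 1410 ± 37.8 (SD, n = 4) and Lgals1 at 1900 ± 332 (SD, n = 4), while the keratins Krt8 and Krt18 were at no more than 0.164 and 0.0832 CPM in any culture. Ptprc, Alb and Cdh1, markers of blood, liver and epithelial cells, and the fibroblast marker Col1a1 had group means of at most 0.0569, 0.425, 0.746 and 0.464 CPM. Epcam was at 2.99 ± 0.649 CPM in A1 at stationary phase (SD, n = 3) and at 0.0733 ± 0.127 in CHO-S (SD, n = 3). Pecam1 reached 4.84 ± 2.59 CPM (SD, n = 3) in CHO-S at stationary phase. Pdgfra, another fibroblast marker, was present in every group, from a mean of 36.3 CPM in A0 to 86.1 ± 5.87 (SD, n = 3) in CHO-S, both at stationary phase. The keratins had been expected to be high and Pdgfra to be absent, and neither held. The part of these differences in the results below was not tested.

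The 9 folate genes did not share a direction between A1 and A0. At exponential phase Slc19a1 and Mthfd1 were higher in A1, and Tyms and Mthfd2 were lower. At stationary phase Ggh and Shmt1 were higher in A1, and Mthfd2, Fpgs and Mthfd1l were lower. Mthfd2 was the only one of the 9 with an adjusted p under 0.05 in both phases (adjusted p-values throughout are those of the edgeR quasi-likelihood test after Benjamini-Hochberg correction), and the largest fold change of the 9 was that of Ggh at stationary phase. At exponential phase this made 4 of the 9 genes called, 2 higher and 2 lower, where 25.7% of the 20022 genes tested were called, 12% higher and 13.8% lower. For 3 of the 9 the ranges of A0 and A1 were separate, against 34.3% of all genes. At stationary phase 5 of the 9 were called, 2 higher and 3 lower, where 33.7% of 19293 genes were called, 16% higher and 17.7% lower, and 5 of the 9 did not overlap, against 40% of all genes. The median log2 fold change of the 9 was 0.01 at exponential and 0.03 at stationary phase, next to -0.04 and 0 over all genes tested, and its median size was 0.20 and 0.27, next to 0.38 and 0.41.

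**Figure D1:**
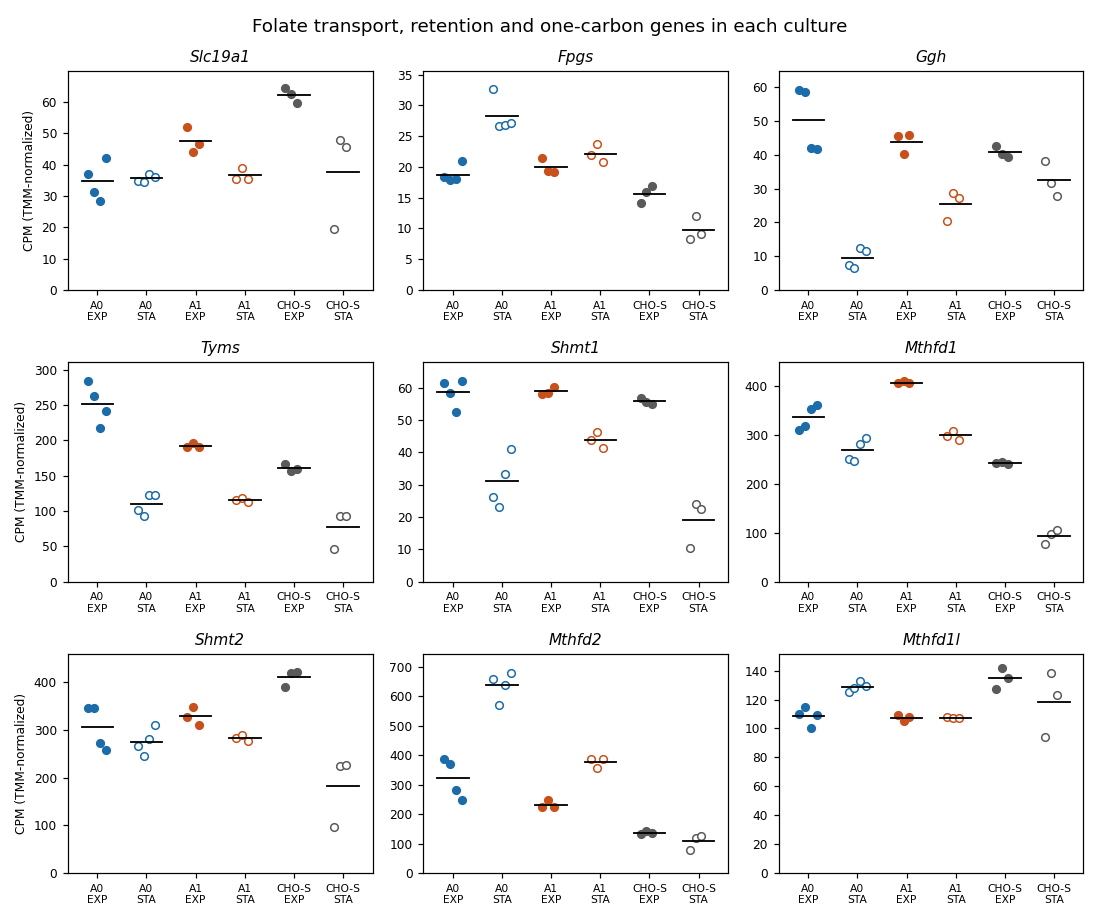
Level of each gene in CPM (TMM-normalized, y axis from 0) in every culture of A0, A1 and CHO-S at exponential (EXP, filled) and stationary (STA, open) phase, with 1 point a culture in the order of its number and a line at the group mean. Ggh lay between 6.47 and 12.4 CPM in A0 at stationary phase, below all other cultures, and Mthfd2 between 570 and 678 CPM there, above all other cultures.

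Slc19a1 (gene 100689407) encodes the reduced folate carrier, which brings reduced folates and methotrexate into the cell. At exponential phase its RNA was at 37, 31.3, 28.4 and 42.2 CPM (scaled by the trimmed mean of M-values, TMM, as are all CPM here) in A0 cultures 1 to 4, at 51.9, 44 and 46.7 in A1 cultures 1 to 3, and at 64.4, 62.6 and 59.6 in CHO-S cultures 1 to 3. At stationary phase it was at 34.9, 34.5, 37.1 and 36 CPM in A0, at 35.4, 38.9 and 35.5 in A1, and at 19.6, 48 and 45.7 in CHO-S. The lines were thus separate at exponential phase, with CHO-S highest and A0 lowest, and A0 and A1 overlapped at stationary phase. The A1 level was 1.37-fold that of A0 at exponential phase (log2 0.45, standard error 0.13, edgeR adjusted p = 0.017). That call was lost without A0 culture 2 (adjusted p = 0.053), A1 culture 1 (0.1) or A1 culture 3 (0.069), and when only A0 cultures 3 and 4 were kept (log2 0.42, adjusted p = 0.083). The stationary value was log2 0.03 (standard error 0.084, edgeR adjusted p = 0.84), and without A1 culture 2 it was -0.01. From the highest group mean down, the order was CHO-S exponential, A1 exponential, CHO-S stationary, A1 stationary, A0 stationary and A0 exponential. Only the first neighbours in that order had separate ranges.

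Fpgs (gene 100689022), folylpolyglutamate synthase, adds the glutamates that keep folates and methotrexate inside. In A0 it was at 18.3, 17.8, 18 and 20.9 CPM at exponential and at 32.7, 26.6, 26.8 and 27.1 at stationary phase. In A1 it was at 21.4, 19.4 and 19.1 CPM and then 21.9, 23.8 and 20.8, and in CHO-S at 14.2, 15.9 and 16.9 and then 8.26, 12.1 and 9.08. All A0 cultures were higher at stationary than at exponential phase, all CHO-S cultures were lower, and the A1 phases overlapped. A1 did not differ from A0 beyond the spread at exponential phase (log2 0.09, standard error 0.11, edgeR adjusted p = 0.61) and was lower at stationary phase, with every A1 culture below every A0 culture (log2 -0.36, standard error 0.1, edgeR adjusted p = 0.016). Leaving out A1 culture 1 (adjusted p = 0.053) or culture 3 (0.08) ended the stationary call. From the highest mean down, Fpgs ran A0 stationary, A1 stationary, A1 exponential, A0 exponential, CHO-S exponential and CHO-S stationary, and only A1 exponential overlapped with both of its neighbours, A1 stationary and A0 exponential.

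Ggh (gene 100751581) is gamma-glutamyl hydrolase, which removes the glutamates again. Its exponential levels were 59.1, 58.5, 42 and 41.7 CPM in A0 cultures 1 to 4, at 45.4, 40.2 and 45.8 in A1 and at 42.7, 40.1 and 39.3 in CHO-S. At stationary phase it was at 7.35, 6.47, 12.4 and 11.5 CPM in A0, at 20.3, 28.7 and 27.1 in A1 and at 38.2, 31.5 and 27.9 in CHO-S. The lines overlapped at exponential phase, where A0 cultures 1 and 2 were above all other cultures, and at stationary phase every A0 culture was below every A1 and CHO-S culture. A1 was 2.67-fold above A0 at stationary phase (log2 1.42, standard error 0.2, edgeR adjusted p = 7.4e-05), with 1.88 against only A0 cultures 1 and 2 and 1.11 against only cultures 3 and 4. The exponential value was log2 -0.20 (standard error 0.14, edgeR adjusted p = 0.31). Against only A0 cultures 1 and 2 it was -0.43 and past the threshold (edgeR adjusted p = 0.0016), and against only cultures 3 and 4 it was 0.06. The order of the means was A0, A1 and CHO-S exponential, then CHO-S, A1 and A0 stationary, with separate neighbours only between the phases and between A1 and A0 at stationary phase.

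Tyms (gene 100754276), thymidylate synthase, makes thymidylate at the cost of the reduced folate. At exponential phase it was at 284, 263, 218 and 241 CPM in A0 cultures 1 to 4, at 191, 196 and 190 in A1 and at 166, 156 and 159 in CHO-S. At stationary phase it was at 102, 92.8, 123 and 123 CPM in A0, at 115, 118 and 113 in A1 and at 46.4, 92.2 and 93.5 in CHO-S. Every culture was lower at stationary phase than any exponential culture, and the lines were separate at exponential phase in the order A0, A1, CHO-S. A1 was at 0.765 of the A0 level there (log2 -0.39, standard error 0.099, edgeR adjusted p = 0.0096). Leaving out A1 culture 1 (adjusted p = 0.052) or culture 3 (0.059) ended the call, as did all 6 groups in 1 fit (0.06). At stationary phase A0 and A1 overlapped (log2 0.06, standard error 0.096, edgeR adjusted p = 0.71). The A0 pairs lay on either side of A1, with a log2 fold change of 0.23 against A0 cultures 1 and 2 alone (edgeR adjusted p = 0.013) and -0.10 against cultures 3 and 4 alone (0.23). Without A0 culture 2 it was -0.01.

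Shmt1 (gene 100773080), the cytosolic serine hydroxymethyltransferase, passes a unit from serine to the folate used by thymidylate synthase. Its exponential levels were nearly the same in the 3 lines, at 61.4, 58.2, 52.3 and 62 CPM in A0, 58, 58.2 and 60.3 in A1 and 56.8, 55.5 and 54.8 in CHO-S. At stationary phase it was at 26.3, 23.1, 33.3 and 41.1 CPM in A0, 43.8, 46.1 and 41.3 in A1 and 10.3, 24 and 22.4 in CHO-S. All stationary cultures were below all exponential ones, and among them every A1 culture was above every A0 culture, by a margin that for A0 culture 4 was small. A1 was 1.4-fold above A0 at stationary phase (log2 0.48, standard error 0.15, edgeR adjusted p = 0.023). This call was lost without A0 culture 1 (adjusted p = 0.055) or any of A1 cultures 1, 2 and 3 (0.082, 0.096 and 0.056), and with A0 cultures 3 and 4 alone (log2 0.23, adjusted p = 0.078), while it was kept at 0.81 with cultures 1 and 2 alone (5.4e-08). The exponential value was log2 0.01 (standard error 0.093, edgeR adjusted p = 0.96), and it was -0.05 without A0 culture 3. In the RefSeq annotation of CriGri-PICRH-1.0 the span of Shmt1 overlaps that of Smcr8, which had a median of 442 counts per library against 637 for Shmt1. The strand setting of the counting was not given in the sources used here, so reads of the shared stretch are uncertain.

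Mthfd1 (gene 100763862) encodes the cytosolic enzyme that interconverts formyl, methenyl and methylene folates and takes in formate. Exponential levels were 310, 319, 354 and 361 CPM in A0, 406, 411 and 406 in A1 and 242, 245 and 241 in CHO-S. At stationary phase it was at 252, 247, 281 and 294 CPM in A0, 299, 309 and 290 in A1 and 76.4, 98.1 and 105 in CHO-S. A1 was highest and CHO-S lowest in each phase, with separate ranges at exponential phase and an overlap of A0 and A1 at stationary phase. The A1 to A0 log2 fold change was 0.28 at exponential phase (standard error 0.087, edgeR adjusted p = 0.028) and 0.15 at stationary phase (standard error 0.074, edgeR adjusted p = 0.15). The exponential call was lost without A0 culture 1 or 2 (adjusted p = 0.057 and 0.089), without A1 culture 1, 2 or 3 (0.1, 0.12 and 0.097), with all 6 groups in 1 fit (0.064) and with A0 cultures 3 and 4 alone (log2 0.18, adjusted p = 0.082). With A0 cultures 1 and 2 alone the stationary value was 0.25 and past the threshold (edgeR adjusted p = 0.0031).

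Of the mitochondrial enzymes, Mthfd2 (gene 100770086) catalyses the dehydrogenase and cyclohydrolase steps after serine cleavage. Exponential cultures were at 387, 369, 281 and 246 CPM in A0 cultures 1 to 4, at 225, 249 and 223 in A1 and at 132, 144 and 135 in CHO-S. At stationary phase it was at 658, 570, 638 and 678 CPM in A0, at 385, 356 and 386 in A1 and at 77.4, 118 and 126 in CHO-S. At stationary phase the lines were far apart in the order A0, A1, CHO-S, and at exponential phase A1 culture 2 lay above A0 culture 4 while CHO-S stayed apart. A1 was at 0.586 of the A0 level at stationary phase (log2 -0.77, standard error 0.073, edgeR adjusted p = 2.8e-06), a call kept under each of the 16 alternatives, with values from -0.81 to -0.71. At exponential phase it was at 0.723 of A0 (log2 -0.47, standard error 0.14, edgeR adjusted p = 0.02). Against only A0 cultures 1 and 2 that value was -0.71 (edgeR adjusted p = 3.7e-05), and against only cultures 3 and 4 it was -0.19 and not called (0.14). The call was also lost without A0 culture 2 (adjusted p = 0.069) or A1 culture 1, 2 or 3 (0.089, 0.05 and 0.11). From the highest mean down the order was A0 stationary, A1 stationary, A0 exponential, A1 exponential, CHO-S exponential and CHO-S stationary, and A0 exponential overlapped with both of its neighbours.

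Shmt2 (gene 100754714), the mitochondrial serine hydroxymethyltransferase, had the same level in A0 and A1 within the spread. Its mean at exponential phase was 305 ± 47.3 CPM in A0 (SD, n = 4), 328 ± 18.6 in A1 (SD, n = 3) and 410 ± 16.9 in CHO-S (SD, n = 3), and at stationary phase 275 ± 27.6 (SD, n = 4), 283 ± 6.27 (SD, n = 3) and 183 ± 74.3 (SD, n = 3). The A1 to A0 log2 fold change was 0.10 at exponential phase (standard error 0.11, edgeR adjusted p = 0.55) and 0.03 at stationary phase (standard error 0.078, edgeR adjusted p = 0.83). At exponential phase A0 cultures 1 and 2 were at 346 CPM each and cultures 3 and 4 at 272 and 258, while the A1 cultures were at 327, 347 and 310. Against the latter pair alone the fold change was 0.30 (edgeR adjusted p = 0.019), and against the former it was -0.08.

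Mthfd1l (gene 100767336), which releases formate in the mitochondrion, moved least, with a ratio of 1.25 between its highest and lowest group means. At exponential phase it was at 108 ± 6.28 CPM in A0 (SD, n = 4), 107 ± 1.81 in A1 (SD, n = 3) and 134 ± 7.68 in CHO-S (SD, n = 3). At stationary phase it was at 125, 128, 133 and 129 CPM in A0 and at 108, 107 and 107 in A1, without overlap, and at 93.9, 138 and 123 in CHO-S. The A1 to A0 log2 fold change was -0.27 at stationary phase (standard error 0.067, edgeR adjusted p = 0.0057). At exponential phase it was -0.02 (standard error 0.087, edgeR adjusted p = 0.91), a direction that turned to 0 or above with library size as the only scaling and without A0 culture 2 (0.02). The stationary call was lost with all 6 groups in 1 fit (edgeR adjusted p = 0.074).

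**Figure D2:**
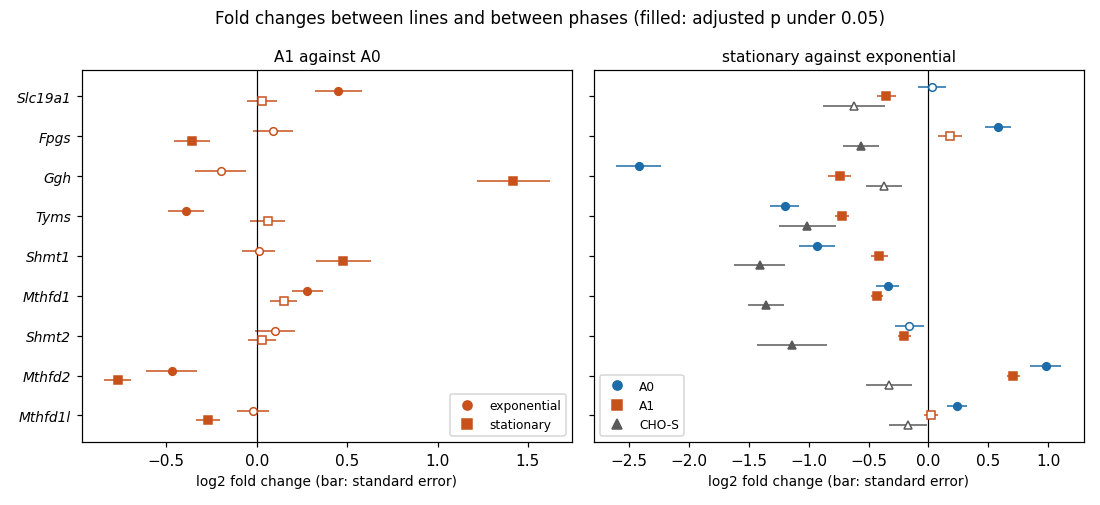
Log2 fold changes of the 9 genes with their standard errors (x axis), between A1 and A0 in each phase and between the phases in each line; filled symbols have an adjusted p under 0.05 in edgeR. The stationary to exponential value of Ggh was -2.42 in A0 and -0.74 in A1, and Mthfd2 was higher in A0 and A1 and not in CHO-S.

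Between the phases, 7 of the 9 genes were called in A0, 3 higher and 4 lower at stationary phase. Ggh fell furthest, to 0.187 of the exponential level (log2 -2.42, standard error 0.19, edgeR adjusted p = 9.8e-08), with stationary to exponential ratios of 0.124, 0.111, 0.295 and 0.276 in cultures 1 to 4. Tyms fell to 0.435 (log2 -1.20, standard error 0.12, edgeR adjusted p = 7.2e-07), Shmt1 to 0.527 (log2 -0.93, adjusted p = 9.1e-05) and Mthfd1 to 0.793 (log2 -0.34, adjusted p = 0.011). Mthfd2 rose 1.97-fold (log2 0.98, standard error 0.13, edgeR adjusted p = 2.1e-05), with ratios from 1.54 to 2.76, and Fpgs 1.5-fold (log2 0.58, adjusted p = 0.00051). Mthfd1l rose 1.18-fold (log2 0.24, edgeR adjusted p = 0.039), a call lost without exponential culture 2 or 3 or any of the 4 stationary cultures (adjusted p = 0.052 and 0.093, and 0.061, 0.082, 0.097 and 0.078), or with cultures 1 and 2 alone (log2 0.16, adjusted p = 0.097). Shmt2 (log2 -0.16) and Slc19a1 (0.03) did not pass the threshold, and for each of them 2 cultures were higher and 2 lower. With cultures 1 and 2 alone Shmt2 was called lower (-0.45, edgeR adjusted p = 0.0022), and with cultures 3 and 4 alone it was at 0.16 (0.25). Among the 20326 genes tested 37.6% were called, 17.6% higher and 20% lower. The phases did not overlap for 7 of the 9, against 35.7% of all genes.

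In A1 the same number was called, 1 higher and 6 lower, where 33.4% of 18548 genes were called, 15.6% higher and 17.8% lower. Mthfd2 rose 1.64-fold (log2 0.71, standard error 0.057, edgeR adjusted p = 2.8e-11). Tyms fell by 0.72 on the log2 scale (edgeR adjusted p = 1.9e-11), Ggh by 0.74 (adjusted p = 3.2e-07), Mthfd1 by 0.43 (1.1e-07), Shmt1 by 0.41 (2.9e-05), Slc19a1 by 0.35 (0.00088) and Shmt2 by 0.20 (0.0057). Mthfd1l (log2 0.02) and Fpgs (0.18) did not pass the threshold. With all 6 groups in 1 fit the calls of Shmt1 (-0.43, edgeR adjusted p = 0.084), Shmt2 (-0.22, 0.53) and Slc19a1 (-0.37, 0.14) were lost. The phases did not overlap for 7 of the 9, against 42.9% of all genes.

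In CHO-S none of the 9 was higher at stationary phase and 5 were lower, where 13.3% of 17367 genes were called, 6.81% higher and 6.48% lower. These were Shmt1 (log2 -1.41, standard error 0.21, edgeR adjusted p = 0.0079), Mthfd1 (-1.36, standard error 0.15, 0.0033), Shmt2 (-1.14, standard error 0.29, 0.042), Tyms (-1.01, standard error 0.24, 0.034) and Fpgs (-0.56, standard error 0.15, 0.048). The phases did not overlap for 8 of the 9, against 36.4% of all genes. Without the shallow stationary culture 1, 8 of the 9 and 8269 genes in all were called. Mthfd2 (log2 -0.17, edgeR adjusted p = 0.0047), Slc19a1 (-0.40, 2.7e-07) and Ggh (-0.43, 2.8e-06) then also passed the threshold, all lower. Without exponential culture 2 neither a member nor any other gene was called by edgeR, although 3471 genes, 5 members among them, had an unadjusted p under 0.05, and DESeq2 called 817 genes and 2 members. Without exponential culture 1 or 3, or stationary culture 2 or 3, Tyms (adjusted p = 0.14, 0.14, 0.095 and 0.084), Shmt1 (0.072, 0.065, 0.051 and 0.052), Shmt2 (0.14, 0.16, 0.1 and 0.09) and Fpgs (0.13, 0.21, 0.082 and 0.23) were not called. Fpgs also lost its call with DESeq2 (adjusted p = 0.074) and, in edgeR, with other scaling factors (0.052) or filterByExpr (0.051). The phase effect in CHO-S was not tested against that in A0 or A1.

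A change of the A1 to A0 difference with the phase was tested as the interaction of line and phase. Ggh was the only one of the 9 called, higher, at 1.62 on the log2 scale (standard error 0.25, edgeR adjusted p = 0.00022), where 8.92% of 20978 genes were called, 5.03% higher and 3.89% lower. It kept its call under each of the 25 alternatives, with values from 1.04 to 2.32. Tyms (log2 0.44, adjusted p = 0.052), Fpgs (-0.45, 0.072), Shmt1 (0.48, 0.11), Slc19a1 (-0.42, 0.11), Mthfd1l (-0.26, 0.16), Mthfd2 (-0.30, 0.31), Mthfd1 (-0.13, 0.57) and Shmt2 (-0.07, 0.87) did not pass the threshold in edgeR with all cultures. Tyms passed it in 11 of the 25 alternatives, among them DESeq2 (adjusted p = 0.03) and, in edgeR, library size only (0.041), filterByExpr (0.044), no filter (0.028) and the unmarked A0 libraries (0.046). DESeq2 also called Fpgs (0.034) and Mthfd1l (0.04), and filterByExpr in edgeR also called Fpgs (0.044). With each culture number of a line as a block across the phases, 6 of the 9 passed it, while the number of all genes called went from 1871 to 3432: Ggh, Tyms (0.44, edgeR adjusted p = 0.0032), Shmt1 (0.50, 0.0044), Slc19a1 (-0.43, 0.022), Mthfd2 (-0.32, 0.032) and Fpgs (-0.44, 0.039). Deviations of same-numbered cultures from their group means correlated between the phases at 0.189 to 0.436 in A0 and at -0.146 to 0.186 in A1. Pairing by number is thus not settled in either line. Without A0 exponential culture 4, 2653 genes and 4 of the 9 were called, with Tyms (0.46, edgeR adjusted p = 0.034), Slc19a1 (-0.53, 0.016) and Fpgs (-0.50, 0.026) besides Ggh. Tyms was also called without A0 exponential culture 3 (0.51, 0.023) or stationary culture 3 or 4 (0.50 each, 0.029 and 0.027), and Shmt1 without A0 stationary culture 4 (0.64, 0.0088). The values depended on the A0 cultures used. With cultures 1 and 2 alone Tyms was at 0.74 (edgeR adjusted p = 4.9e-06), Shmt1 at 0.84 (2e-05), Fpgs at -0.57 (0.0078), Slc19a1 at -0.41 (0.031), Mthfd2 at -0.02 and Shmt2 at 0.22 (0.087). With cultures 3 and 4 alone Mthfd2 was at -0.63 (edgeR adjusted p = 0.0014), Shmt2 at -0.37 (0.025), Mthfd1l at -0.33 (0.045), Tyms at 0.16 (0.38) and Shmt1 at 0.19 (0.48).

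Against CHO-S at exponential phase, A0 had 3 of the 9 genes higher and 3 lower, where 49.2% of 20052 genes were called, 27.4% higher and 21.8% lower. Mthfd2 was 2.36-fold higher (log2 1.24, standard error 0.14, edgeR adjusted p = 3.9e-06), and Tyms (log2 0.66, adjusted p = 5e-05) and Mthfd1 (0.48, 0.00026) were higher too. Slc19a1 was at 0.562 of the CHO-S level (log2 -0.83, standard error 0.12, edgeR adjusted p = 4.3e-05), and Shmt2 (-0.41, 0.0063) and Mthfd1l (-0.30, 0.0083) were lower, the last not called without CHO-S culture 2 (-0.26, 0.062). Ggh (0.32, 0.061) passed the threshold without A0 culture 3 (0.40, 0.029) or 4 (0.39, 0.022), and was at 0.54 with A0 cultures 1 and 2 alone (2.5e-05) and at 0.04 with cultures 3 and 4 alone (0.68). The groups did not overlap for 7 of the 9, against 53.6% of all genes. In A1, 4 were higher and 3 lower than in CHO-S, where 57.2% of 18488 genes were called, 30% higher and 27.1% lower. These were Mthfd2 (log2 0.76, edgeR adjusted p = 4.9e-12), Mthfd1 (0.74, 1.4e-13), Fpgs (0.34, 0.0036) and Tyms (0.26, 2.3e-05), and, lower, Slc19a1 (-0.39, 1.8e-05), Mthfd1l (-0.33, 6.4e-06) and Shmt2 (-0.32, 1.8e-06). The groups did not overlap for 8 of the 9, against 62% of all genes. With all 6 groups in 1 fit the A1 calls of Tyms (edgeR adjusted p = 0.19), Shmt2 (0.19) and Slc19a1 (0.052) were lost. Both comparisons use the same CHO-S cultures.

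Against CHO-S at stationary phase, Mthfd2, Mthfd1 and Fpgs were higher in A0 and Ggh was lower. Of the 9 genes 3 were thus higher and 1 lower in A0, where 40% of 19007 genes were called, 20.7% higher and 19.3% lower. Mthfd2 was 5.78-fold higher (log2 2.53, standard error 0.19, edgeR adjusted p = 4.6e-06), Mthfd1 2.81-fold (log2 1.49, adjusted p = 5.1e-05) and Fpgs 2.7-fold (log2 1.43, adjusted p = 0.00014). Ggh was at 0.298 of the CHO-S level (log2 -1.75, standard error 0.24, edgeR adjusted p = 0.00023). In A1, 4 of the 9 were higher and none lower, where 34.8% of 18243 genes were called, 18.2% higher and 16.6% lower. Mthfd2 was 3.41-fold higher (log2 1.77, standard error 0.2, edgeR adjusted p = 3e-04), Mthfd1 3.13-fold (log2 1.65, adjusted p = 0.00017), Fpgs 2.1-fold (log2 1.07, adjusted p = 0.0016) and Shmt1 2.07-fold (log2 1.05, adjusted p = 0.0071). The groups did not overlap for 5 of the 9 in A0, against 45.1% of all genes, and for 6 of the 9 in A1, against 48.6%.

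Without CHO-S stationary culture 1 more of the 9 differed from CHO-S. The number of all genes called also went up, from 7606 to 9831 in A0 and from 6345 to 10451 in A1. In A0 there were 6, with Shmt2 (log2 0.30, edgeR adjusted p = 0.02) and Slc19a1 (-0.38, 0.0046) in addition, and Slc19a1 was at 0.04 without CHO-S culture 2. The A0 calls made with all cultures were kept, with Mthfd2 at 2.40, Mthfd1 at 1.42, Fpgs at 1.40 and Ggh at -1.63. In A1 there were 8, with Tyms (log2 0.29, edgeR adjusted p = 0.00035), Shmt2 (0.30, 4.3e-05), Mthfd1l (-0.31, 9.9e-05) and Slc19a1 (-0.38, 0.00021) in addition, while 4051 genes were called without CHO-S culture 2. The earlier A1 calls were kept as well, with Mthfd2 at 1.60, Mthfd1 at 1.54, Fpgs at 1.00 and Shmt1 at 0.88. With library size as the only scaling, the median of all genes moved by 0.15 in A1 and by 0.1 in A0 on the log2 scale at stationary phase, and no call of the 9 genes changed with it in these comparisons. At exponential phase the same scaling added Fpgs (log2 0.31, edgeR adjusted p = 0.044) and Ggh (0.35, 0.034) to the calls in A0, and Shmt1 (0.14, 0.034) and Ggh (0.17, 0.042) to those in A1.

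Among other genes of folate uptake and the folate cycle, the proton-coupled folate transporter Slc46a1 was 1.65-fold higher in A1 at exponential phase (log2 0.72, edgeR adjusted p = 0.00077), from 8.54 ± 0.837 CPM (SD, n = 4) to 14.1 ± 0.301 (SD, n = 3). Mthfd2l, the mitochondrial relative of Mthfd2, was at 42.4 ± 11.1 CPM in A0 (SD, n = 4) and 15.5 ± 2.11 in A1 (SD, n = 3) at stationary phase (log2 -1.47, standard error 0.18, edgeR adjusted p = 3.2e-05). The methionine synthase Mtr was lower there too (log2 -0.72, edgeR adjusted p = 0.0033). The folate receptor Folr1 had a mean of at most 0.4 CPM in any group.

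The counts of the gene lists below stand next to 25.7% of all genes called between A1 and A0 at exponential phase, 33.7% at stationary phase and 8.92% for the interaction. Genes of serine synthesis and of glycine cleavage had 1 higher and 3 lower of 7 in A1 at exponential phase (median -0.35 on the log2 scale). At stationary phase 1 was higher and 4 were lower (median -0.29). Phgdh, the first enzyme of serine synthesis, was higher in each phase (log2 0.48 and 0.30), and Psph, the last, was lower (-0.60 and -0.68), as was Gcsh of the glycine cleavage system (-0.35 and -0.48). Amt of the same system was lower at exponential phase (-0.77) and Psat1 at stationary phase (-0.29). In the methionine cycle 2 of 8 were higher and 2 lower at exponential phase and 1 of 7 was higher at stationary phase (medians -0.22 and 0.08), with Ahcy higher in each (0.40 and 0.66), and Ahcyl2 higher (0.39) and Mat2a lower (-0.31) at exponential phase. Of the formyl-folate users of purine synthesis, Atic was lower at exponential phase (-0.39) and Gart at stationary phase (-0.29), each 1 of 2 tested (medians -0.36 and -0.18).

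Of 8 genes of thymidylate and deoxynucleotide supply tested, 2 were higher and 2 lower in A1 at exponential phase (median 0.01) and 6 higher and 1 lower at stationary phase (median 0.86 on the log2 scale). Dut (log2 1.12), Dtymk (1.10), Tk1 (0.89) and Samhd1 (0.87) were higher at stationary phase, and at exponential phase Samhd1 (0.58) and Dtymk (0.37) were higher and Rrm2 (-0.54) and Dck (-0.48) lower. From exponential to stationary phase, where 37.6% of all genes were called in A0, 33.4% in A1 and 13.3% in CHO-S, 7 of 8 were lower in A0 (median -1.33) and 7 of 8 in A1 (median -0.68), and in CHO-S 5 were lower and 1 was higher (median -0.98). For the interaction 4 of 8 were higher.

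Proliferation genes were lower at stationary phase in the 3 lines, as were Tyms, Shmt1 and Mthfd1. With all cultures, Ggh was called lower in A0 and A1, Shmt2 in A1 and CHO-S, Slc19a1 only in A1 and Fpgs only in CHO-S. In CHO-S the call of Ggh was reached only without stationary culture 1. Of 15, 14 were lower at stationary phase in A0 (median -1.32 on the log2 scale), 14 in A1 (-0.57) and 11 in CHO-S (-1.05), next to medians of 0, 0.03 and 0.02 over all genes. Of all genes, 20% were called lower in A0, 17.8% in A1 and 6.48% in CHO-S. Their summed level at exponential and at stationary phase was 5860 ± 252 and 2420 ± 607 CPM in A0 (SD, n = 4 each), 5170 ± 85.4 and 3490 ± 113 in A1 (SD, n = 3 each) and 5070 ± 38.9 and 2790 ± 369 in CHO-S (SD, n = 3 each). Between A1 and A0, 2 of 15 were higher and 5 lower at exponential phase (Aurka at 0.37, Top2a at -0.47, Mcm7 at -0.46 and Mcm4 at -0.45), and 10 higher and none lower at stationary phase (Mki67 at 0.97, Bub1 at 0.87, Ccne1 at 0.80 and Aurka at 0.79). For the interaction 8 of 15 were higher (median 0.62). The part of the share of dividing cells in the results for these members was not tested. Fewer cells with a transcript and less of it per cell cannot be told apart in these bulk samples.

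Atf4 is a stress factor that regulates amino acid and one-carbon genes. Most of its targets were higher at stationary phase in A0 and A1, as was Mthfd2. From exponential to stationary phase 12 of 12 were higher in A0 (median 1.89 on the log2 scale) and 11 of 12 in A1 (1.26), while in CHO-S 3 were higher and 2 lower (-0.01). Of all genes, 17.6% were called higher in A0 and 15.6% in A1, and in CHO-S 6.81% higher and 6.48% lower. The medians over all genes were 0, 0.03 and 0.02. Their summed level in the same order of phases was 1070 ± 142 and 3120 ± 152 CPM in A0 (SD, n = 4 each), 1330 ± 56.9 and 2920 ± 102 in A1 (SD, n = 3 each) and 1160 ± 35.2 and 1280 ± 60.3 in CHO-S (SD, n = 3 each). Between A1 and A0, 6 of 12 were higher and none lower at exponential phase (median 0.60), where Mthfd2 was lower, with Sesn2 at 2.24, Trib3 at 1.64, Ddit4 at 1.13 and Slc7a11 at 1.03. At stationary phase 2 were higher (Atf5 at 1.15 and Ddit4 at 0.76) and 7 lower, Atf3 (-0.68) and Ddit3 (-0.64) among them (median -0.42). For the interaction 6 of 12 were lower. The part of Atf4 in the Mthfd2 result was not tested.

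The genes whose levels were most like those of the 9 were sought by Pearson's r of log2(CPM + 1) over the 20 cultures, among the same 10588 genes. The cultures fall into 6 groups, so r mostly reflects the group levels. Ggh was most like Dut (r = 0.968), Psrc1 (0.952) and Tacc3 (0.944), Tyms like Mtfr2 (0.969), Ptbp1 (0.969) and Cenpt (0.968), and Shmt1 like Mre11a (0.974), Suv39h2 (0.973) and Recql4 (0.973). Mthfd2 was most like Tbc1d9b (0.985), Matn4 (0.976) and LOC100769564 (0.972), Fpgs like Slc5a6 (0.969), Mterf4 (0.966) and Dcaf4 (0.957), and Slc19a1 like LOC100761720 (0.966), Hars2 (0.953) and Maea (0.942). Mthfd1 was most like Nudc, Thoc5 and Ddx1 (0.97 each), Shmt2 like Psmb10 (0.946), Grwd1 (0.946) and Sbk1 (0.933), and Mthfd1l like Fuk (0.912), Ghdc (0.896) and Rpl19 (0.889). Among the 9 themselves, the highest r was that of Tyms with Shmt1 (0.914), followed by Mthfd2 with Fpgs (0.897), and the lowest was that of Mthfd2 with Ggh (-0.616).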

How the data were processed

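Per the methods of the study, the authors mapped reads to C_griseus_v1.0 with STAR 2.5.4b and obtained gene counts with HTSeq 0.7.2. The deposited counts are raw, and the strand setting was not given in the sources used here. The table's 5 summary lines (reads outside genes were 11.9% to 32.8% per library) entered neither library sizes nor tests. Exponential A0 libraries of 1 culture number were summed. A gene was tested when 2 libraries or more of a comparison had 1 count or more and its variance was not 0. Tests used edgeR 4.0.16 in R 4.3.3 (TMM factors, quasi-likelihood F-test, Benjamini-Hochberg correction over all genes tested, threshold 0.05). They were checked on simulated data, with an outcome that is not given here. DESeq2 1.42.0, other scalings and filters, all groups in 1 fit, subsets of A0 cultures, leaving out each culture and a replicate block were alternatives. Between the A0 phases, deviations from the group means of same-numbered cultures correlated at 0.189 to 0.436 over 4 pairs. Stationary cultures 1 and 2 were most like the exponential culture of their own number, and cultures 3 and 4 were not. Pairing by number is therefore not settled in A0. Members and gene lists were chosen with earlier results of these data known. Named genes are all members and, per list and phase, up to 4 genes called between A1 and A0 with the largest fold change and at least 5 CPM on average; some are not reported here. All 9 members matched RefSeq (CriGri-PICRH-1.0, used for names and gene spans) by gene number. Near-identical gene copies were not analysed here.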

Additional observations from a re-analysis of the deposited data

Results flagged for a closer look

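The A1 to A0 difference of Ggh changed with the growth phase by 1.62 on the log2 scale, past the threshold of the interaction test in edgeR (adjusted p = 0.00022). The difference was -0.20 at exponential and 1.42 at stationary phase.

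Among the 18 sets of 4 A0 cultures, 1 for each of the 9 genes in each phase, 2 held a culture far from the others, both for Fpgs. At exponential phase culture 4 was high, at 20.9 CPM against 17.8 to 18.3 (gap over range 0.838), and at stationary phase culture 1 was high, at 32.7 CPM against 26.6 to 27.1 (0.919). Chance gives such a gap in about 1 in 20 sets.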

How the results depend on the processing

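Of the 50 calls of the 9 genes over the 10 comparisons, 30 stayed called in the same direction whatever alternative was run, and none of the 50 changed direction. Of the remaining results, 27 passed the threshold under some alternative and 13 changed sign or came to 0 under some alternative. The 13 leave out Mthfd1l between the phases in A1, at 0.02 with all cultures and 0 to the printed digits without exponential culture 2.

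Counts of called genes moved by over 1.5 times as follows. With all 6 groups in 1 fit they were 2469 (phases in A1), 4107 (phases in CHO-S) and 973 (interaction), and the members called were 2 (A1 against A0, exponential), 7 (A0 against CHO-S, stationary), 4 (A1 against CHO-S, exponential) and 4 (phases in A1). With A0 cultures 3 and 4 alone there were 5016 (phases in A0), with 2 members called between A1 and A0 at exponential phase and 4 for the interaction. With A0 cultures 1 and 2 alone the interaction had 4586 genes and 5 members. Interaction members were 4 with DESeq2, 2 with library size only, 3 with filterByExpr, 2 with no filter and 2 with the unmarked A0 libraries. The cause was not tested.

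With a replicate block, counts were 5055 (A0 against CHO-S, stationary), 350 and 2 members (phases in CHO-S) and 3432 and 6 members (interaction). Outside the A0 phases the samples share only a number: same-numbered deviations correlated at -0.195 to 0.186. Between the A0 phases the block changed no call of the 9 genes. Elsewhere it also ended the CHO-S phase calls of Tyms, Shmt2 and Fpgs and added Ggh for A0 against CHO-S at exponential phase.

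These values turned sign or came to 0, none of them called in the comparison with all cultures. For A1 against A0 at exponential phase Mthfd1l was 0 with library size only, 0.05 with the unmarked libraries, 0.02 without the RLT libraries and 0.04 with A0 cultures 3 and 4 alone, where Ggh was 0.06. With A0 cultures 1 and 2 alone Shmt1 was -0.03, Shmt2 -0.08 and the Shmt2 interaction 0.22. With cultures 3 and 4 alone Tyms was -0.10 and Shmt2 -0.07 at stationary phase, and Shmt2 between the A0 phases 0.16.

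Leaving out 1 culture gave these ranges. Called genes ranged from 3140 to 6006 (A1 against A0, exponential), 4051 to 10451 (A1 against CHO-S, stationary), 0 to 8269 (phases in CHO-S, edgeR, with 3471 at an unadjusted p under 0.05 and 817 by DESeq2 at the lowest) and 1003 to 2653 (interaction). Members called ranged from 0 to 4 (A1 against A0, exponential; 0 in edgeR without A1 culture 1 and also without A1 culture 3, where 4 had an unadjusted p under 0.05 each time and DESeq2 called 1 and 2, and 1 without A0 culture 2), 3 to 5 (stationary), 4 to 8 (A1 against CHO-S, stationary), 0 to 8 (phases in CHO-S) and 1 to 4 (interaction). Between A1 and A0, Mthfd1l ranged from -0.06 to 0.02 and Shmt1 from -0.05 to 0.04 at exponential phase, and Tyms from -0.01 to 0.12, Shmt2 from -0.02 to 0.09 and Slc19a1 from -0.01 to 0.05 at stationary phase. For A0 against CHO-S at stationary phase Mthfd1l ranged from 0 to 0.28 and Slc19a1 from -0.38 to 0.04, and for A1 Slc19a1 ranged from -0.38 to 0.01. Slc19a1 ranged from -0.06 to 0.14 between the A0 phases, and the Shmt2 interaction from -0.14 to 0. The lowest depth was in the CHO-S stationary group, where 1 culture had 1038026 counts, and its part in these results was not tested.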
